A study of Mus musculus with 6 samples.

Results

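Tumour necrosis factor (TNF), its receptors and the proteins that carry its signal were followed in mouse macrophages exposed to cancer cell-conditioned medium with or without its lipids. The set held 9 genes of the 46603 counted, taken by symbol: the ligands Tnf and Tnfsf12, the shedding protease Adam17, the receptors Tnfrsf1a and Tnfrsf1b, the adaptors Traf1, Traf2 and Ripk1, and the TNF-induced gene Tnfaip2. All 9 passed the filter on low counts. Marrow cells of 7-week-old C57BL/6/J mice were turned into macrophages in medium holding 20% L929-conditioned medium, a source of macrophage growth factor. They were detached on day 6, seeded at 800000 cells per well and, 6 h later, given conditioned medium with lipids (3 libraries) or without lipids (3 libraries). No genotype, sex, cancer cell line, means of lipid removal or exposure time is given in the labels, and no library from unexposed macrophages was analysed here. Each value therefore compares the 2 media only.

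TNF is made as a membrane-bound trimer that the protease ADAM17 cuts free from the cell surface. The free form signals mainly through the receptor encoded by Tnfrsf1a, which has a death domain and recruits TRADD, RIPK1 and TRAF2. The receptor encoded by Tnfrsf1b responds best to membrane-bound TNF, binds TRAF2 directly and recruits TRAF1 with it. Ubiquitin chains built on these complexes switch on NF-kB and MAP kinases, and when that fails caspase-8 or RIPK3 can kill the cell. Macrophages are a main source of TNF.

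With lipids in the medium, 6 of the 9 genes were lower and 0 were higher at an edgeR adjusted p of 0.05. Over all tested genes 6.87% were lower and 4.58% higher. Tnf and Tnfaip2 had the largest differences, with log2 fold changes (with lipids minus without) of -0.90 (SE 0.13) and -0.80 (SE 0.09). Tnfrsf1b, Traf1 and Tnfsf12 changed by -0.48, -0.45 and -0.44, and Adam17 by -0.27. Traf2 at -0.20, Ripk1 at 0.12 and Tnfrsf1a at 0.14 did not pass the test. At an unadjusted p of 0.05 the same fit held 7 members lower and 0 higher, and 1845 and 1549 of all 12767 tested genes. DESeq2 and limma-voom each called 6 members lower and 0 higher. Over all tested genes DESeq2 called 907 lower and 640 higher, and limma-voom 845 and 600. The 2 groups of libraries did not overlap for any of the 9 genes, against 30.5% of all tested genes. The median log2 fold change of the 9 was -0.44, beside -0.00 over all tested genes. The members were chosen with earlier results of these data known, so these contrasts with all genes only describe the set.

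A single library stood apart. On the second principal component (21.8% of variance) replicate 1 of the lipid-free group was at -22.96 and the other 5 libraries at -1.17 to 13.95. Without that library 7 members were lower and 0 higher, Traf2 being the member added. Calls over all genes also rose, from 877 lower and 585 higher to 1975 and 1566. Totals ran from 19429022 to 25323053 counts, and each member held at least 441 counts in every library. Macrophage markers were abundant, and of 8 listed 2 were higher (Itgam and Fcgr1) and 1 lower (Cd68) with lipids. Among the 9 markers of T and NK cells, which can also make TNF, the summed level was 6.42 to 7.49 CPM (counts scaled to library size) with lipids and 11.2 to 17.6 CPM without. Nearly all of that sum was Cd4, which was lower with lipids (log2 fold change -1.16, edgeR adjusted p = 8.79e-04), while Cd3e and Cd8a were at 0 counts in every library. The 7 mast cell and basophil markers summed to 2.85 to 3.17 CPM with lipids and 9.79 to 11.2 CPM without, led by Kit, with Ms4a2, Fcer1a and Mcpt4 at 0. Of 6 fibroblast markers only Col3a1 passed the test, lower at -0.50, and their sum was 114 to 122 CPM with lipids against 119 to 162 CPM without. Neutrophil, B cell, dendritic, erythroid and platelet, and epithelial markers summed to at most 2.30 CPM in any library. Their part in the results was not tested, and in bulk RNA fewer cells of a type cannot be told apart from less RNA per cell.

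The start regions of 4 members are shown because they include the largest changes, Tnf and Tnfaip2, and the receptor pair whose values had opposite signs, Tnfrsf1b and Tnfrsf1a. Each line is the 250 bases upstream of the RefSeq start (GRCm38.p6), read along the gene's strand, with capitals marking a TATA box (TATAAA) or a GC box (GGGCGG, on either strand).
Tnf, chr17:35202008-35202257, minus strand: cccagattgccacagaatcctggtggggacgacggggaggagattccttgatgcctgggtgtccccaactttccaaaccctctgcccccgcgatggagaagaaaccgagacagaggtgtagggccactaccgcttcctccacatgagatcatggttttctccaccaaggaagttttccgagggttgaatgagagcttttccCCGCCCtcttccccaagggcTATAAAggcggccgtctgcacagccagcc
Tnfaip2, chr12:111442411-111442660, plus strand: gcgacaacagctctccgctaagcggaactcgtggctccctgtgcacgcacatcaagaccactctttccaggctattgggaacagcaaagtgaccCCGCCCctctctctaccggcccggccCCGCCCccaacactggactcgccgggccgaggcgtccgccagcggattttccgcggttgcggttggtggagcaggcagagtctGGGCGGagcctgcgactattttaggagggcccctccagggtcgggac
Tnfrsf1b, chr4:145246871-145247120, minus strand: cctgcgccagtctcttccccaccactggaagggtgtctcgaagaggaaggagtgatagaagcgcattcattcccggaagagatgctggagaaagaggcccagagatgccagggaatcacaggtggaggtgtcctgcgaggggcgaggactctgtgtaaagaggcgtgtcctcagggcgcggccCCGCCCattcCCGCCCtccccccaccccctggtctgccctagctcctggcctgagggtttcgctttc
Tnfrsf1a, chr6:125349473-125349722, plus strand: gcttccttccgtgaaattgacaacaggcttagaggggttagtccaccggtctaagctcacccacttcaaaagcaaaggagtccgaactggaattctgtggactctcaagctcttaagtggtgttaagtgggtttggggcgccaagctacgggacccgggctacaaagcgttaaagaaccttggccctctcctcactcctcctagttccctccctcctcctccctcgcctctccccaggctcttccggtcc
Entries were matched for 8 members, the exception being Tnfsf12, with 9 windows since Ripk1 had 2. The Tnf window held TATAAA, whose first and last bases lay 29 and 24 bases before the start, and 12.4% of the 32851 windows in the table held that motif on either strand. No other member's window held it. GGGCGG was present once in Tnf and Adam17, at 2 places in Tnfrsf1b, at 3 places in Tnfaip2 and in both Ripk1 windows, and was not present in the windows of Tnfrsf1a, Traf1 or Traf2, against 32.7% of all windows. The kappaB consensus (3.90% of all windows) and TGANTCA, a binding motif of AP-1 (6.75%), were searched on both strands and occurred in none of the 9 windows, which says only that these letters are not in these windows. RefSeq and GENCODE place some starts differently. The whole Tnfrsf1a window, most of the Tnfaip2 window and 1 of the Ripk1 windows lie inside the gene as GENCODE M21 bounds it, and the bases before the GENCODE starts of Tnfrsf1a and Tnfaip2 were not all searched.

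Tnf messenger RNA is also known for an AU-rich stretch in its 3′ UTR, through which tristetraprolin (the product of Zfp36) and related proteins shorten its life. The stretch is shown because the largest change of the set was in this gene. It lies at chr17:35199679-35199708 (GRCm38, minus strand, GENCODE M21) and 5 copies of ATTTA, some overlapping, are in capitals.
Tnf AU-rich stretch: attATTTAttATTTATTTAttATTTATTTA
Over its 764 bases the Tnf 3′ UTR held 8 copies of ATTTA and 5 of the longer TTATTTATT. Among 2979 protein-coding 3′ UTRs within 25% of that length, 4.16% held TTATTTATT. Of the other 8 members only Ripk1 held it, at 2 places in 4365 bases. Any part of these motifs in the change of Tnf was not tested.

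Tnf, the founding ligand of the family, lies on chromosome 17 (35199381 to 35202007, GRCm38, minus strand). It was at 23.0, 21.9 and 20.6 CPM in the 3 libraries with lipids and at 44.7, 46.5 and 31.2 CPM in replicates 1, 2 and 3 without. The libraries with lipids lay close together, while replicate 3 without lipids stood well below the other 2 of its group but still above every library with lipids. The means were 21.9 ± 1.17 and 40.8 ± 8.37 CPM (SD, n = 3 each), 1.86-fold higher without lipids (log2 fold change -0.90, 95% interval -1.19 to -0.60, edgeR adjusted p = 0.00164). Without that replicate the log2 fold change was -1.06. The neighbouring family members on the same locus, Lta and Ltb, which encode the lymphotoxins, held at most 4 and 10 counts in any library and were not tested.

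Tnfsf12 encodes TWEAK, a ligand that macrophages make and that signals through the receptor encoded by Tnfrsf12a. It lies on chromosome 11 (69686250 to 69695849, minus strand) and was at 53.9, 56.9 and 58.8 CPM with lipids and 70.3, 79.6 and 80.9 CPM without. The lowest library without lipids was replicate 1. The log2 fold change was -0.44 (SE 0.07, edgeR adjusted p = 0.00275). A read-through gene on the same strand, Tnfsfm13, shares 48.3% of the exon bases of Tnfsf12. It held only 216 counts against 8521 for Tnfsf12 and was at -0.78 (edgeR adjusted p = 0.0615). The assignment of reads in shared bases is not stated, and the level of Tnfsf12 is uncertain. Its receptor gene Tnfrsf12a was at -0.31 (edgeR adjusted p = 0.188).

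Adam17, the protease that releases TNF and both TNF receptors from the cell surface, lies on chromosome 12 (21323509 to 21373632, minus strand). It was at 379, 380 and 383 CPM with lipids and 467, 462 and 453 CPM without. Libraries of a group lay close together, at 381 ± 2.07 and 460 ± 6.90 CPM (SD, n = 3 each). The change was small, 1.21-fold higher without lipids (log2 fold change -0.27, SE 0.05, edgeR adjusted p = 0.0057). The call was lost when replicate 2 with lipids was left out (edgeR adjusted p = 0.0546), with the log2 fold change still -0.27. Iah1, on the other strand, shares 4.35% of the exon bases of Adam17. It changed by -0.42 (edgeR adjusted p = 0.0149) but held 3034 counts against 53880.

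**Figure D1:**
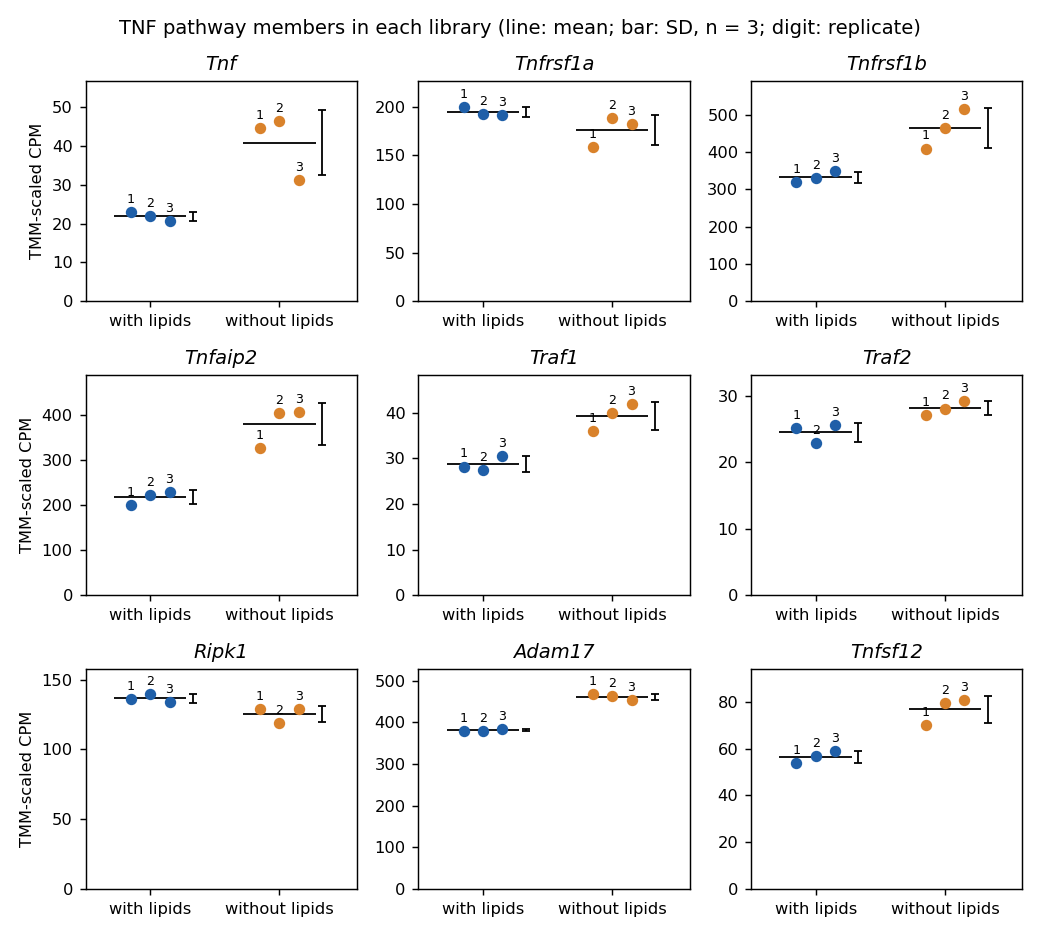
Level of each of the 9 genes in every library, in TMM-scaled CPM (y axes start at 0), for macrophages given conditioned medium with lipids (blue) or without (orange); lines are means, bars beside them SD of 3 libraries, and digits replicate numbers. In each panel the groups do not overlap; Tnf shows replicate 3 without lipids at 31.2 CPM, below the 44.7 and 46.5 CPM of the other 2.

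Of the receptors, Tnfrsf1b was lower with lipids and Tnfrsf1a did not pass the test. Tnfrsf1b, on chromosome 4 (145213463 to 145246870, minus strand), was at 319, 329 and 348 CPM with lipids and 409, 464 and 516 CPM without. Every library without lipids was above every library with lipids, and replicate 1 was the lowest without lipids. The log2 fold change was -0.48 (95% interval -0.66 to -0.30, edgeR adjusted p = 0.00336). Tnfrsf1a, on chromosome 6 (125349362 to 125362484, plus strand), was at 200, 192 and 191 CPM with lipids and 159, 188 and 182 CPM without. Its small difference had the opposite sign, and the lowest value was again replicate 1 without lipids. The log2 fold change was 0.14 (95% interval -0.01 to 0.29, edgeR adjusted p = 0.225), and without that replicate it was 0.08.

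Within each library the ratio of the receptors does not depend on the scaling. The ratio of Tnfrsf1b to Tnfrsf1a, per length, was 1.08, 1.16 and 1.24 with lipids and 1.75, 1.67 and 1.92 without. These levels depend on the length used, since Tnfrsf1a has 2591 annotated exon bases but 2156 in its longest protein-coding transcript. The difference between the media does not. On the log2 scale the means were 0.21 ± 0.10 and 0.83 ± 0.10 (SD, n = 3 each), a difference of -0.62 (exact two-sided permutation p = 0.1, the smallest that 3 against 3 allow, and 0.1 after Benjamini-Hochberg adjustment over 4 ratios). The groups did not overlap, and the gap between them exceeded the spread within either.

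Of the adaptors Traf1 was lower with lipids, and Traf2 and Ripk1 did not pass the test. Traf1, which lacks the RING domain of its relatives and is itself an NF-kB target gene, lies on chromosome 2 (34941750 to 34961772, minus strand). It was at 28.2, 27.4 and 30.6 CPM with lipids and 35.9, 39.9 and 42.0 CPM without. Every library without lipids exceeded every library with them, and edgeR gave a log2 fold change of -0.45 (SE 0.08, adjusted p = 0.00527). Traf2, the adaptor that brings the ubiquitin ligases encoded by Birc2 and Birc3 to the receptors, also lies on chromosome 2 (25517982 to 25546940, minus strand). It was at 25.1, 22.9 and 25.6 CPM with lipids and 27.1, 28.1 and 29.3 CPM without. The groups were close but did not overlap, and the log2 fold change was -0.20 (95% interval -0.37 to -0.03 for the single gene, edgeR adjusted p = 0.132). Traf2 passed when replicate 1 without lipids was left out (-0.23, edgeR adjusted p = 0.0371) and in limma-voom with a weight for each library (-0.22, adjusted p = 0.0462). More of all tested genes were also called in both fits. The log2 ratio of Traf1 to Traf2 was -0.56 ± 0.05 with lipids and -0.31 ± 0.06 without (SD, n = 3 each), a difference of -0.25 (exact two-sided permutation p = 0.1). The sign of this ratio depends on the length used. Over the longest transcripts Traf1 averaged 9.89 and Traf2 8.66 RPKM in the 6 libraries.

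Ripk1, the kinase that decides between NF-kB signalling and cell death at the receptor, lies on chromosome 13 (34002363 to 34037147, plus strand). It was at 136, 140 and 134 CPM with lipids and 129, 119 and 129 CPM without. The log2 fold change was 0.12 (95% interval -0.01 to 0.25, edgeR adjusted p = 0.232). Serpinb6a, on the other strand, shares 2.89% of the exon bases of Ripk1 and held 142075 counts against 16991, and it was at -0.02 (edgeR adjusted p = 0.879). The strand setting of the counting is not given in the sources used here.

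Tnfaip2, a gene first found as induced by TNF, whose product shapes membrane protrusions, lies on chromosome 12 (111442469 to 111455018, plus strand). It was at 201, 223 and 229 CPM with lipids and 326, 405 and 407 CPM without. Replicate 1 without lipids stood below the other 2 but well above every library with lipids. The log2 fold change was -0.80 (SE 0.09, edgeR adjusted p = 2.41e-04), the smallest p of the 9.

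**Figure D2:**
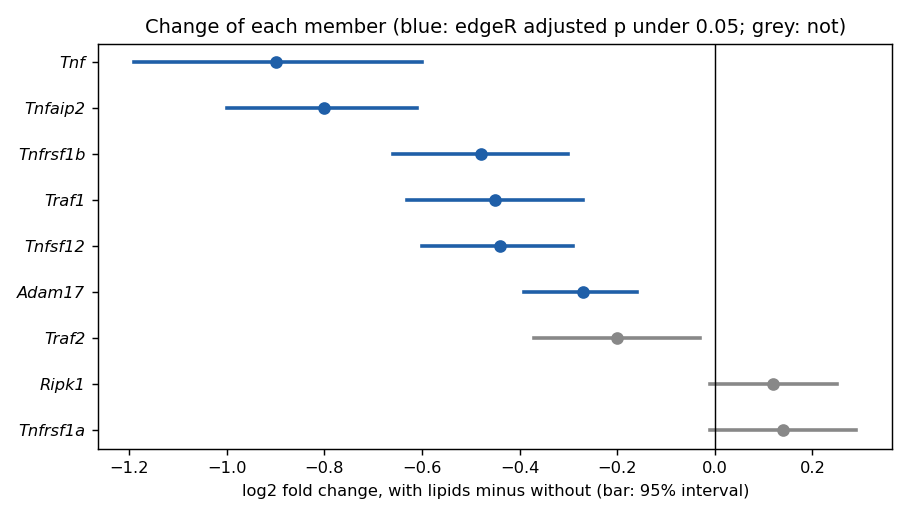
Log2 fold change of each gene (x axis, with lipids minus without) with its 95% interval from the edgeR fit; blue genes have an adjusted p under 0.05 over all 12767 genes and grey genes do not. Tnf at -0.90 and Tnfaip2 at -0.80 lie farthest from 0, and Ripk1 and Tnfrsf1a lie on the other side of it with intervals that reach -0.01.

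The lowest library differed between members. Replicate 1 was the lowest library without lipids for Tnfrsf1a, Tnfrsf1b, Tnfaip2, Traf1, Traf2 and Tnfsf12, whereas replicate 3 was the lowest for Tnf and Adam17 and replicate 2 for Ripk1. The genes whose log2 profile over the 6 libraries was most like that of Tnf, out of 9490 protein-coding candidates averaging 5 CPM or more, were Zfp462, Ndrg4, Slc22a4, Cxcl2, Dusp4 and Tm4sf19. Their root mean square distances to Tnf were 0.09 to 0.10 log2, against a median of 0.48 over those genes. Cxcl2, a neutrophil-attracting chemokine, was at 9.82, 8.81 and 9.41 CPM with lipids and 17.9, 17.6 and 14.0 CPM without, and Dusp4, a MAP kinase phosphatase, at 37.3, 34.7 and 27.7 against 70.5, 71.8 and 44.3 CPM. These genes were chosen for their likeness to Tnf over the same libraries, and the likeness is a description only. Of the other members Tnfaip2 was the nearest to Tnf, at 0.27, and Tnfrsf1a the farthest, at 0.55.

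Ratios of Tnf to Adam17 and Tnfsf12 carry the low Tnf value of replicate 3 without lipids by construction. The log2 ratio of Tnf to Adam17, per length, was -1.91, -1.99 and -2.08 with lipids and -1.26, -1.18 and -1.73 without, a difference of -0.60 (exact two-sided permutation p = 0.1). Against Tnfsf12 it was -1.34, -1.49 and -1.62 with lipids and -0.77, -0.89 and -1.48 without. Replicate 3 without lipids fell inside the range of the libraries with lipids, and the difference of -0.44 had an exact two-sided permutation p of 0.2.

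**Figure D3:**
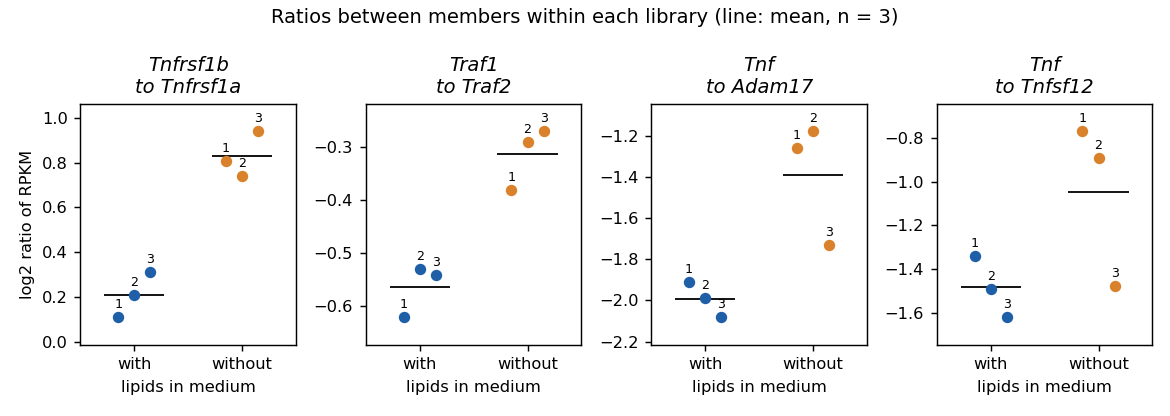
Log2 ratio of length-scaled values (RPKM) between pairs of members within each library; blue is with lipids, orange without, lines are means of 3 libraries and digits replicate numbers (each panel has its own y range, which does not start at 0). Tnfrsf1b to Tnfrsf1a has the widest gap relative to its spread, and Tnf to Tnfsf12 overlaps through replicate 3 without lipids at -1.48. The level of each ratio depends on the exon length used, while its difference between the media does not.

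Levels between genes were compared as RPKM, which scales counts by the annotated exon length and the library size, with SD over all 6 libraries. Averaged over both media, Tnfrsf1b was the most abundant at 104 ± 20.9 RPKM, then Tnfrsf1a at 71.5 ± 5.51, Tnfaip2 at 59.9 ± 18.8, Adam17 at 58.8 ± 6.13 and Tnfsf12 at 44.0 ± 7.83 RPKM. Tnf at 19.1 ± 7.13, Ripk1 at 15.7 ± 0.849, Traf2 at 5.17 ± 0.452 and Traf1 at 3.85 ± 0.702 RPKM followed. Ranges over libraries did not overlap between Tnfrsf1b and Tnfrsf1a, between Tnfsf12 and Tnf, or between Ripk1 and Traf2, and overlapped for the other neighbours in this order. These ranges pool both media and do not compare genes within a library. Within each library Traf1 was below Traf2 per exon length, at ratios of 0.65 to 0.828. The order differed between the media. Tnfaip2, at 43.7 ± 2.97 RPKM with lipids, was below Tnfrsf1a at 74.9 ± 1.89 and Adam17 at 53.2 ± 0.289. Without lipids it averaged 76.0 ± 9.27 RPKM, above Tnfrsf1a at 68.0 ± 5.98 and Adam17 at 64.4 ± 0.964. With lipids Tnf, at 13.3 ± 0.714 RPKM, was below Ripk1 at 16.3 ± 0.368, and without lipids it was above it, at 24.9 ± 5.11 against 15.1 ± 0.670 RPKM (SD, n = 3 each). This order depends on the length used. The annotated exons of Traf1 span 8819 bases and its longest protein-coding transcript 3436 bases. Over the longest transcript of each gene, averaged over both media, Traf1 was at 9.89 RPKM, above Traf2 at 8.66. Adam17 was at 94.1 RPKM, above Tnfrsf1a at 85.9 and Tnfaip2 at 79.3, and Ripk1 was at 20.3, above Tnf at 19.1. The ranges of Tnfrsf1b (83.5 to 135 RPKM) and Tnfrsf1a (73.5 to 92.7 RPKM) then overlapped. The changes of order between the media were read from exon lengths and need not hold over transcripts. From exons to longest transcript the length falls from 4984 to 3762 bases for Tnfaip2 and from 7154 to 4469 for Adam17. On transcript lengths Tnfaip2 does not average above Adam17 without lipids.

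Other genes of the pathway were read from 8 lists chosen with earlier results of these data known. Over all 12767 tested genes 6.87% were lower and 4.58% higher with lipids. At an unadjusted edgeR p of 0.05 these were 1845 lower and 1549 higher. The lists share genes, among them Tnfaip3, Tnip1, Nfkbia, Relb and Traf3, so their counts are not separate results. Among the 27 ubiquitin, kinase and scaffold genes of the receptor complex, 3 (11.1%) were lower and 0 higher with lipids, with a median of -0.02. At an unadjusted p of 0.05 edgeR gave 8 lower and 1 higher, and DESeq2 called 4 and 0. Over all tested genes DESeq2 called 907 and 640. The 3 that fell were Tnfaip3, a ubiquitin-editing enzyme, at -0.95 (SE 0.08, edgeR adjusted p = 6.28e-05), its partner Tnip1 at -0.73 and the ubiquitin-binding receptor Optn at -0.54. Other genes of the list whose products trim or read ubiquitin did not pass, among them the deubiquitinases Cyld at 0.02 (edgeR adjusted p = 0.855) and Otulin at -0.18 (0.0996) and the Tnfaip3 partners Tax1bp1 at -0.13 (0.189), Itch at 0.13 (0.214) and Rnf11 at -0.01 (0.964). Tradd, the first adaptor at the death domain, was at -0.25 (edgeR adjusted p = 0.265), the ubiquitin ligase gene Birc3 at -0.19 (0.149), the kinase gene Map3k7 at 0.08 (0.413) and its binding partner Tab1 at -0.31 (0.0647). With replicate 1 of the lipid-free group left out 9 were lower and 2 higher, and limma-voom with library weights called 8 and 3. Calls over all genes also rose in these fits, to 1975 lower and 1566 higher and to 1919 and 1450.

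Of 15 genes of the death complex and necroptosis 2 (13.3%) were higher with lipids and 0 lower, beside 4.58% higher over all tested genes, with a median of 0.04. The list had 4 higher and 1 lower at an unadjusted edgeR p of 0.05, 3 and 0 with DESeq2 and 2 and 0 with limma-voom. Over all tested genes these were 1549 higher and 1845 lower, 640 and 907, and 600 and 845. Ripk3, the kinase of necroptosis, averaged 46.1 ± 1.55 CPM in the lipid-containing medium against 32.5 ± 2.35 CPM in the other (SD, n = 3 each). It was higher by 0.51 on the log2 scale (edgeR adjusted p = 0.00162). Casp8, the initiator caspase of this complex, was at 0.20 just beyond the threshold (edgeR adjusted p = 0.0522) and passed under 7 of 17 alternatives. Its inhibitor Cflar was at -0.16, the adaptor Fadd at -0.15 and Mlkl, which RIPK3 activates to rupture the membrane, at -0.08, and none of these passed. With replicate 1 of the lipid-free group left out, or with library totals alone, 4 genes of the list were higher, Casp8 among them. Over all genes the number higher also rose, from 585 to 1566 and to 1241.

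Genes that control TNF release and the life of its messenger RNA formed the next list. Of 27, 2 (7.41%) were lower and 1 (3.70%) higher, with a median of 0.05. These shares were near the 6.87% lower and 4.58% higher of all tested genes. Zc3h12a, an RNase that degrades cytokine messengers, changed by -0.43 (edgeR adjusted p = 0.0301), the sorting protein gene Pacs2 by -0.23 (0.0219), and Tial1, which binds AU-rich stretches, was higher by 0.28 (0.024). These 3 calls were lost in several fits with 1 library removed, and the list had 0 to 8 members lower and 0 to 4 higher over those fits. All tested genes had 423 to 1975 lower and 219 to 1566 higher over the same fits. The largest counts of both came without replicate 1 of the lipid-free group. With library totals alone the calls of Zc3h12a and Pacs2 were also lost. The list then had 0 lower and 4 higher, and all tested genes had 596 and 1241. Zfp36, whose product binds the AU-rich stretch printed above, averaged 95.6 ± 6.89 CPM with lipids against 96.7 ± 17.9 CPM in their absence (SD, n = 3 each; log2 fold change -0.02, edgeR adjusted p = 0.946). Rhbdf2, which carries ADAM17 to the surface, was at -0.17 (0.407), the ADAM17 inhibitor gene Timp3 at 0.08 (0.730) and the related protease gene Adam10 at 0.25 (0.0791).

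Among 21 relatives and partners of the TRAF adaptors 2 (9.52%) were higher and 1 (4.76%) lower, with a median of 0.09. Over all tested genes the shares were 4.58% and 6.87%. Map3k5, a kinase that TRAF2 activates on the way to JNK and p38, was higher by 0.40 (SE 0.07, edgeR adjusted p = 0.00333). Traf3ip3 was higher by 0.40 (edgeR adjusted p = 0.0355) and Traf3, which limits non-canonical NF-kB signalling, changed by -0.31 (0.0387). Both calls were lost when any 1 of the libraries with lipids, or replicate 2 without lipids, was left out, and Traf3 also with library totals alone. Traf6 was at -0.00, Traf5 at 0.08 and Map3k14, the kinase that TRAF3 restrains, at 0.16, none past the threshold. Of the TRAF genes in the members and this list only Traf1 and Traf3 passed.

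Other ligands of the family were scarce. Of 16 listed, 7 passed the filter and edgeR called 0 in either direction, also at an unadjusted p of 0.05 and with DESeq2 and limma-voom. Fasl, Cd40lg and Cd70, which T cells are known for, were at 0 counts in every library, where the limit that 3 counts allow was 0.118 to 0.154 CPM. Tnfsf15 was at -0.79 (SE 0.38, edgeR adjusted p = 0.207) with at most 19 counts in a library, and Tnfsf9, Tnfsf10 and Tnfsf13b were at 0.13, -0.11 and 0.17. Of 26 other receptors 17 were tested, with a median of 0.06, and 0 were higher. Only 1 (5.88%) was lower, near the 6.87% of all tested genes. That was Tnfrsf21, a death-domain receptor, averaging 17.1 ± 1.51 CPM with lipids against 24.3 ± 1.77 CPM in their absence (SD, n = 3 each; log2 fold change -0.50, edgeR adjusted p = 0.00674). At an unadjusted p of 0.05 edgeR gave 5 lower and 2 higher, while DESeq2 and limma-voom each called 1 and 0. All tested genes had 1845 lower and 1549 higher, 907 and 640, and 845 and 600 in these fits. Limma-voom with library weights called 5 lower and 1 higher, library totals alone gave 1 and 2, and 2 were lower without replicate 1 or replicate 3 of the lipid-free group. Over all tested genes the weights gave 1919 lower and 1450 higher, and library totals alone 596 and 1241. Without those replicates, in the same order, 1975 and 866 of all genes were lower. Relt at 0.43 (edgeR adjusted p = 0.0615), Tnfrsf26 at -0.29 (0.0652), Tnfrsf11a, the RANK receptor of osteoclast precursors, at 0.25 (0.0783), Cd40 at 0.21 (0.282) and Fas at -0.20 (0.502) did not pass. Of these Tnfrsf11a passed under 5 of the 17 alternatives, Tnfrsf26 under 3 and Relt under 1.

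Downstream of the receptors, 5 of 16 NF-kB subunits and inhibitors (31.2%) were lower with lipids and 0 higher, with a median of -0.15. Over all tested genes 6.87% were lower. The list had 7 and 0 at an unadjusted edgeR p of 0.05, 6 and 0 with DESeq2 and 3 and 0 with limma-voom. For all tested genes the same fits gave 1845 lower and 1549 higher, 907 and 640, and 845 and 600. Beside Tnfaip3 and Tnip1 the 5 lower genes were the inhibitors Nfkbia at -0.53 (edgeR adjusted p = 0.00371) and Nfkbib at -0.49 (0.0473) and the subunit Relb at -0.43 (0.0477). Calls for Nfkbib and Relb were lost in the fits that left out any library other than replicate 1 without lipids, where 3 or 4 genes of the list were called. In those fits 423 to 866 of all tested genes were lower. Without that replicate 8 were called, and over all genes the number lower rose from 877 to 1975. Both calls were also lost with library totals alone and with a filter of 1 CPM in 3 libraries, which left 3 called, and each was lost under 10 of 17 alternatives. Of all tested genes 596 were lower with library totals alone and 852 with that filter. Rela at -0.13 and Nfkb1 at 0.00 did not pass.

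Of 26 tested genes that TNF is known to induce, 9 were lower and 2 higher with lipids, with a median of -0.25, beside 6.87% lower and 4.58% higher over all genes. The smallest p-values after Tnfaip3 belonged to the mitochondrial superoxide dismutase gene Sod2 at -0.51 (SE 0.06, edgeR adjusted p = 5.47e-04), Cxcl2 at -0.82 (0.00121) and the adhesion molecule gene Icam1 at -0.46 (0.00292). Cxcl1 at -0.98, Jun at -0.49, Nfkbia, Relb and Traf3 were the other genes that fell. Of the lower genes Tnfaip3, Nfkbia, Relb and Traf3 were already counted in the lists above. Csf1, the macrophage growth factor gene, was higher by 0.36 (edgeR adjusted p = 0.0218) and Tnfaip8 by 0.21 (0.0435), and both calls were lost when any 1 of the libraries with lipids was left out. Il1b was at -0.22 (0.523), and Il6 held at most 1 count in a library. With each library removed in turn, 7 to 13 of the list were lower and 0 to 4 higher, beside 423 to 1975 and 219 to 1566 of all tested genes. For the list and for all genes the largest counts came without replicate 1 of the lipid-free group.

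**Figure D4:**
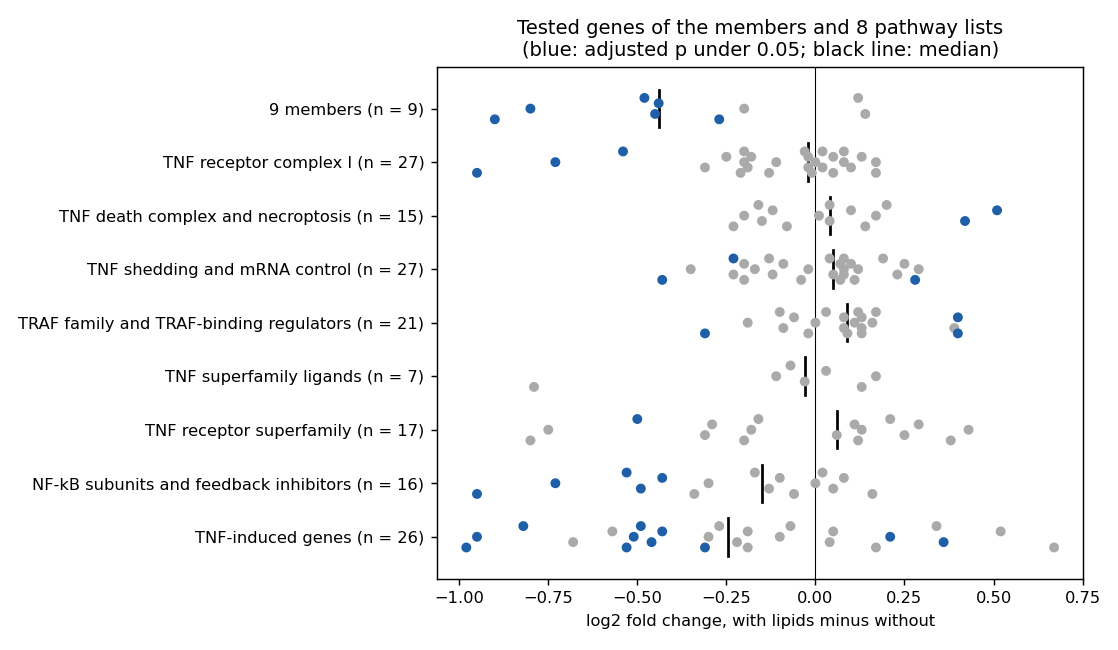
Log2 fold change (x axis, with lipids minus without) of every tested gene in the 9 members and the 8 lists (rows, with the number tested); points are genes, blue where the edgeR adjusted p is under 0.05, with vertical jitter, and black lines are list medians. The members and the TNF-induced genes have medians of -0.44 and -0.25, while the other lists lie between -0.15 and 0.09. A gene shared by lists is drawn in each of them.

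Member values moved little with the processing. Over 17 alternatives Tnf ranged from -1.06 to -0.79 and passed in each, and Tnfaip2 ranged from -0.89 to -0.72 and passed in each. No member changed sign. With library totals alone, which shifted the median of all genes to 0.07, the same 6 genes were called, and Tnfrsf1a at 0.22 and Ripk1 at 0.19 came close to the threshold (edgeR adjusted p = 0.0545 each).

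**Figure D5:**
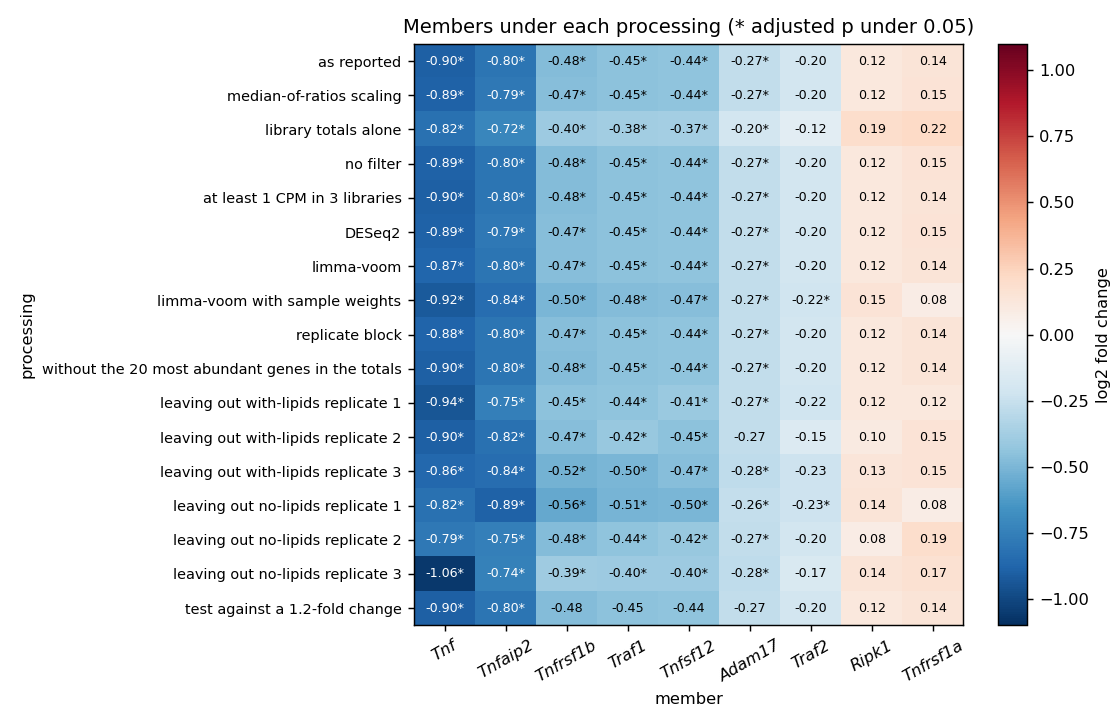
Log2 fold change of each member (columns) under each processing (rows), with an asterisk where the adjusted p was under 0.05; blue cells are lower and red cells higher with lipids. Columns keep their colour in every row, and asterisks are lost mainly in the test against a 1.2-fold change, where only Tnf and Tnfaip2 keep them.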

How the data were processed

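The authors deposited raw counts per Ensembl gene for 6 poly(A) libraries whose kit keeps the strand, per the labels' protocols. GRCm38.p4 and the tools HTSeq, TopHat2 2.1.0 and DESeq2 appear, without their roles, in the submitters' processing notes. For the strand setting, the annotation release and reads shared by genes, the procedure is not given in the sources used here. Each table held 46603 genes and 0 rows of unassigned reads. Names and positions came from GENCODE M21 (GRCm38), which matched 46091 identifiers; 512 unmatched ones held 0.136% of counts.

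Groups came from the sample titles. Whether replicates were separate mice or cultures is not stated, and p-values therefore reflect only how these libraries vary, which may be technical variation. No 2 replicates were alike within sampling noise. The members and the lists were chosen with earlier results of these data known.

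Counts were filtered with filterByExpr (minimum count 10, total 15) and scaled by TMM in edgeR 4.0.16 (R 4.3.3), and a two-sided quasi-likelihood F test compared the groups with Benjamini-Hochberg adjustment over 12767 genes at 0.05. SE came from the F statistic and intervals are at 95%. CPM and RPKM were computed from the counts with the TMM-scaled totals of tested genes. Ratios used a prior of 2 counts and exact permutation tests. Alternatives used limma 3.58.1 and DESeq2 1.42.0. The edgeR step was tested on simulated data.

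Named genes were the 9 members, up to 4 genes of each list by smallest p with up to 3 of textbook role, and the 6 genes nearest to Tnf in profile. Others, such as Tnfrsf12a, Lta, Ltb and further called genes of a list, were chosen after their values were seen. For 1 listed gene, values are not reported here.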

Additional observations from a re-analysis of the deposited data

How the results depend on the processing

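At an adjusted p of 0.05 the number of members lower with lipids was 5 to 7 in the fits with 1 library left out, 7 in limma-voom with library weights, 2 (Tnf and Tnfaip2) in the test against a 1.2-fold change, and 6 under each other alternative; 0 were higher throughout. All genes together depended more on the processing, from 877 lower and 585 higher. Leaving out a library gave 423 to 1975 lower and 219 to 1566 higher, the largest counts without replicate 1 of the lipid-free group, and counts over 1.5 times smaller without replicate 2 of that group or any 1 library with lipids. Library weights in limma-voom gave 1919 and 1450, an adjusted p of 0.01 gave 444 and 216, and the 1.2-fold test 267 and 114. Library totals alone gave 596 lower and 1241 higher, turning the split, and no filter gave 1009 higher. Library totals alone leave out the TMM factors, which were 1.025 to 1.029 with lipids and 0.967 to 0.979 without. The median log2 fold change of all genes was then 0.07, beside -0.00 with the factors. Apart from the stricter thresholds, why the counts moved was not tested.

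Ratios kept their sign with prior counts of 0.5 or 5 and with each library left out in turn, which gave -0.67 to -0.56 for Tnfrsf1b to Tnfrsf1a, -0.28 to -0.22 for Traf1 to Traf2, -0.77 to -0.50 for Tnf to Adam17 and -0.66 to -0.30 for Tnf to Tnfsf12. RPKM over the longest protein-coding transcript, chosen after seeing the data, changed levels most for Traf1, from 3.85 to 9.89. The replicate numbers were not taken as pairs, because nothing in the labels says that a number marks a shared culture. Same-numbered libraries deviated together at correlations of -0.01, -0.09 and 0.18, which over so few libraries cannot decide whether they were paired. With the replicate number as a block 6 members were lower and 0 higher, and over all genes 937 and 715. Depth limited the low-count ligands and receptors, where 3 counts were 0.118 to 0.154 CPM.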
